A study of Xenopus laevis with 3 samples.

Results

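Proteasome genes of the juvenile *Xenopus laevis* inner ear were taken as the Affymetrix probe sets (Xl-PSIDs) whose single gene symbol named a proteasome subunit, activator or assembly factor. The symbol had to begin with psma to psmg and a number, or to be adrm1 or pomp, once the L or S that marks the homeolog was dropped. The rule found 80 of 32539 Xl-PSIDs, which carried 66 symbols with homeologs kept apart and 47 of 9240 genes with homeologs joined. Symbols were available as 1 gene for 15495 Xl-PSIDs, as several genes for 279, and 16765 were unnamed here. Of 50 expected subunits and factors, 44 had a member Xl-PSID, and psma8, psmb10, psmb11, psmd2, psmd11 and psmg4 had none. Both psmc3ip.L, a factor of meiotic recombination, and psme3ip1.S, a partner of an activator, matched by name only, and 78 Xl-PSIDs of 45 genes remained without them. Counts of members below include both unless stated otherwise.

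The proteasome degrades proteins that have been tagged with ubiquitin. A barrel-shaped core particle of alpha and beta rings holds the proteolytic sites inside, and a regulatory particle, made of a base and a lid, binds ubiquitin, removes it, and unfolds and feeds in the substrate. Other caps can replace the regulatory particle, and in jawed vertebrates interferon induces alternative catalytic subunits that change which peptides are made for antigen presentation.

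The data were 3 arrays of 1 group, juvenile frogs from a commercial supplier of about 3 months, with no treatment, mutant or second stage, and each array held RNA from the whole inner ears of pooled animals. Replicates 1 and 2 pooled 5 animals each and replicate 3 pooled 6, with average weights of 9.0, 9.6 and 9.6 g. The larval stages of the study were not used here, and stages were not compared. Values were log2 fluorescence intensities in arbitrary units (a.u.) after GCRMA, which corrects background by probe sequence. Since each probe set has its own affinity, levels of different Xl-PSIDs were not read as an order of abundance.

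The median over 32539 Xl-PSIDs was 7.57, 7.49 and 7.53 on replicates 1, 2 and 3. With 3 arrays their number limits the precision. The p-values below set a mean's distance from 4 against the spread between these pools, a spread partly shared over all Xl-PSIDs. Of the measured genes in marker lists, a mean of 4 or more, the minimum intensity of the study's methods, was reached by 3 of 5 for hair cells, 16 of 19 for neurons, 3 of 4 for Schwann cells, 9 of 10 for cartilage and bone, 15 of 16 for skeletal muscle, 8 of 8 for skin and its glands, 8 of 8 for erythrocytes and 11 of 14 for leukocytes. Over all genes with a symbol the share was 80.2%. In such bulk samples fewer cells of a type and less RNA per cell cannot be told apart.

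Nearly all proteasome Xl-PSIDs were detected. A mean of 4 or more was reached by 74 of 80 members (92.5%), against 64.4% of all Xl-PSIDs and 72.8% of those with 1 symbol. Without the 2 matched by name only it was 72 of 78 (92.3%). At least 1 Xl-PSID was detected for 47 of 47 genes, against 80.2% of all genes with a symbol. A one-sided test by limma asked whether the mean lay above 4, with Benjamini-Hochberg adjustment over all Xl-PSIDs. It was passed by 74 members, against 62.2% of all and 70.8% with 1 symbol. Their adjusted p-values from limma lay between 8.08e-06 (psmc3ip.L, matched by name only) and 0.0106. The member median was 11.65, against 7.53 over all Xl-PSIDs and 8.79 over those with 1 symbol. A mean of 12 or more was held by 30 members, against 9.89% of all Xl-PSIDs and 13.9% of those with 1 symbol, a mean of 10 or more by 64, against 29.1% and 37.2%, and a mean of 8 or more by 73, against 46.9% and 56.4%.

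**Figure D1:**
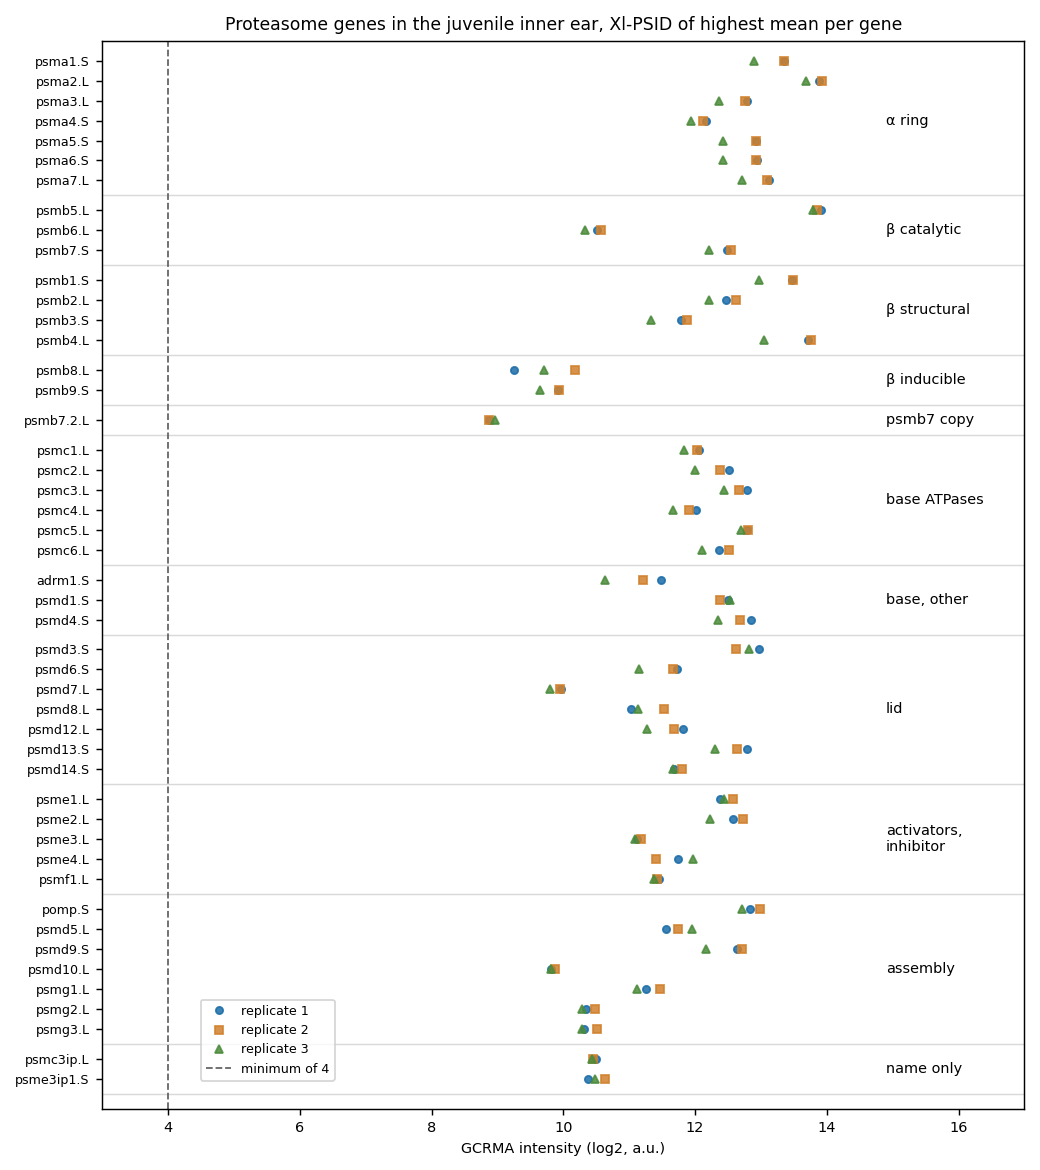
Log2 GCRMA intensity (a.u., horizontal axis) of 47 genes on each of the 3 juvenile inner ear arrays, by the Xl-PSID of highest mean. They are grouped by place in the complex, with the 2 genes matched by name only in a group of their own. Points are single arrays, the dashed line is the minimum of 4, and means lie between 8.90 (psmb7.2.L) and 13.85 (psmb5.L).

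The core particle was detected in each ring. Its alpha ring, the gate of the barrel, had 12 Xl-PSIDs for psma1 to psma7, all detected, with means between 11.95 and 13.83. The ring member psma2.L read 13.88, 13.92 and 13.68 on replicates 1, 2 and 3 (13.83 ± 0.13, SD, n = 3). The structural beta subunits psmb1 to psmb4, which carry no proteolytic site in the mature core, had 5 detected Xl-PSIDs with means between 10.60 and 13.51, among them psmb4.L at 13.71, 13.76 and 13.04.

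Each constitutive catalytic subunit was well above the minimum. The chymotrypsin-like subunit psmb5.L read 13.91, 13.85 and 13.79 on one Xl-PSID (13.85 ± 0.06). The caspase-like subunit psmb6 read 10.51, 10.56 and 10.33 on psmb6.L and 10.71, 10.70 and 9.66 on psmb6.S, and the range of 1.04 on psmb6.S lay between replicate 3 and the other arrays. The trypsin-like subunit psmb7.S read 12.49, 12.54 and 12.22 (12.41 ± 0.17). Replicate 3 was lowest for each of them. The Xl-PSID named psmb7.2.L, a further copy of psmb7 by its name, read 8.87, 8.87 and 8.96 and was highest on replicate 3.

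Inducible catalytic subunits were also detected. The interferon-inducible counterpart of psmb5 in mammals, psmb8.L, read 9.25, 10.17 and 9.71 (9.71 ± 0.46, limma adjusted p = 0.000449), with replicate 1 lowest and replicate 2 highest. The counterpart of psmb6, psmb9.S, read 9.92, 9.93 and 9.64 (9.83 ± 0.16). Nothing can be said of psmb10, the counterpart of psmb7, which had no member Xl-PSID. No gene of that name was in the RefSeq table of the X. laevis version 10.1 assembly either. In that table psmb7.2.L lies on chromosome 8L, as psmb8.L does, between c4a.L and cenpa.L. Its relation to psmb10 was not tested. There psmb9.S lies near mhc2a.S, brd2.S and notch4.S, and psmb8.L lies next to tap1.L and tap2.L, the peptide transporter of antigen presentation. Those transporter genes read 8.97, 9.11 and 8.97 (tap1.L) and 6.46, 5.63 and 6.76 (tap2.L), and tap1.L, like psmb8.L, was lowest on replicate 1 and highest on replicate 2, within a range of 0.15, while tap2.L was lowest on replicate 2. Of 14 measured leukocyte markers 11 were detected (78.6%), against 80.2% of all genes with a symbol, and 9 passed limma. Means of 10 or more were read for cd74.S (13.35 ± 0.10), rac2.L (11.18 ± 0.12) and lyz.L (10.74 ± 0.29). In between lay was.S (8.85), lcp1.S (7.47) and vav1.L (7.15). Nearer the minimum lay mpo.S (5.79), cd53.S (5.61), coro1a.S (5.11), cd3g.S (4.78) and itgb2.L (4.53). Not detected were ptprc (2.04, 2.04 and 2.04), cd8a and csf3r. The Xl-PSIDs of the list had linear intensities summing to 21481, 22203 and 20104 a.u. on replicates 1, 2 and 3. Such a sum weighs the highest Xl-PSIDs most, here cd74.S, a gene that is also in the interferon list given below. The part of leukocytes in the psmb8 and psmb9 values was not tested.

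The base of the regulatory particle holds the ring of ATPases that unfolds substrates, psmc1 to psmc6, and each had a detected Xl-PSID. By the Xl-PSID of highest mean, psmc1.L read 12.05, 12.03 and 11.84, psmc2.L read 12.52, 12.37 and 11.99, and psmc3.L read 12.79, 12.67 and 12.43. On the same basis psmc4.L read 12.02, 11.91 and 11.67, psmc5.L read 12.79, 12.81 and 12.70, and psmc6.L read 12.37, 12.52 and 12.10. All 6 were lowest on replicate 3. The S homeolog psmc3.S read 6.63, 5.38 and 6.06 (limma adjusted p = 0.0106), and without replicate 3 its adjusted p was 0.0816.

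Beside the ATPases, the base holds scaffold proteins and ubiquitin receptors. The receptor adrm1, which also docks the deubiquitinase uchl5, read 11.48, 11.21 and 10.63 on adrm1.S and 9.38, 9.11 and 8.86 on adrm1.L. A further receptor, psmd4.S, read 12.85, 12.68 and 12.35 on its highest Xl-PSID. For adrm1 and psmd4.S replicate 1 was highest and replicate 3 lowest. The base subunit psmd2 had no member Xl-PSID, and the Xl-PSID shared by its homeologs is given at the end. The scaffold psmd1 went otherwise, with 12.49, 12.38 and 12.53 on psmd1.S and 12.08, 11.71 and 11.89 on psmd1.L.

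The lid deubiquitinates the substrate through psmd14, whose Xl-PSIDs read 11.70, 11.61 and 11.54 (psmd14.L) and 11.68, 11.81 and 11.66 (psmd14.S). Of 14 lid Xl-PSIDs 13 were detected, with means between 9.34 and 12.81. The largest range among the detected members, 1.45, belonged to a psmd3.S Xl-PSID that read 10.01, 8.56 and 9.45. The other psmd3.S Xl-PSIDs read 11.10, 11.32 and 10.71, and 12.97, 12.63 and 12.82. The last of these had the same order of the arrays as the Xl-PSID of largest range, lowest on replicate 2. The remaining Xl-PSID of this scaffold subunit was lowest on replicate 3.

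Alternative caps were all detected. The subunits of the interferon-inducible activator ring read 12.38, 12.57 and 12.44 (psme1.L), 12.01, 12.04 and 12.13 (psme1.S) and 12.57, 12.73 and 12.22 (psme2.L). In the same RefSeq table psme1.L and psme2.L are separated by emc9.L, with irf9.L next to psme2.L. The nuclear activator psme3 read 11.12, 11.17 and 11.09 (psme3.L) and 9.61, 9.69 and 9.53 (psme3.S). The large single-chain activator psme4.L read 11.75, 11.41 and 11.97 and was highest on replicate 3. The inhibitor psmf1.L read 11.45, 11.42 and 11.38, a range of 0.08 that was among the 3 smallest of the detected members. The others were 0.05 for psmc3ip.L, matched by name only, and 0.06 for psmd10.L.

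Assembly factors help build the particles and are not part of the finished ones. The core maturation factor pomp.S read 12.83, 12.99 and 12.71 on one Xl-PSID and 11.97, 11.95 and 11.52 on the other. The alpha ring chaperones psmg1.L, psmg2.L and psmg3.L averaged 11.28 ± 0.18, 10.37 ± 0.10 and 10.36 ± 0.13 (SD, n = 3 each). The base chaperones were psmd10.L at 9.81, 9.87 and 9.81, psmd9.S at 12.63, 12.71 and 12.16, and psmd5.L at 11.56, 11.73 and 11.95. Replicate 2 was highest for these except psmd5.L and the second pomp.S Xl-PSID, and psmd5.L alone among the detected assembly Xl-PSIDs was highest on replicate 3.

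The 6 Xl-PSIDs below the minimum each had a detected partner. Means were 2.07 for psmb2.L, 2.48 and 2.53 for psmc1.L, 1.80 for psmd4.S, 2.16 for psmd5.L and 2.07 for psmd8.L, and the adjusted p from limma was 1 for each. The best Xl-PSID with the same symbol averaged 12.44 for psmb2.L, 11.97 for psmc1.L, 12.63 for psmd4.S, 11.75 for psmd5.L and 11.23 for psmd8.L. No gene was therefore without a detected Xl-PSID. Members with A in the probe set name were detected for 2 of 6, and members with S for 72 of 74, against 63.5% and 65% of all Xl-PSIDs with such names.

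Several Xl-PSIDs were given for 9 symbols, and for 9 of 9 their means differed by more than 1, with a median spread of 9.16. The same share over all symbols was not computed, so these counts are not read as a trait of the members. The spreads of psmb2.L, psmc1.L, psmd4.S, psmd5.L and psmd8.L each included an Xl-PSID below the minimum of 4. The smallest spreads included pomp.S at 12.84 and 11.81 and psmb5.L at 13.85 and 12.58. A pair of psmc3.L Xl-PSIDs averaged 12.63 and 8.77. Such gaps lay between probe sets of 1 and the same symbol.

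**Figure D2:**
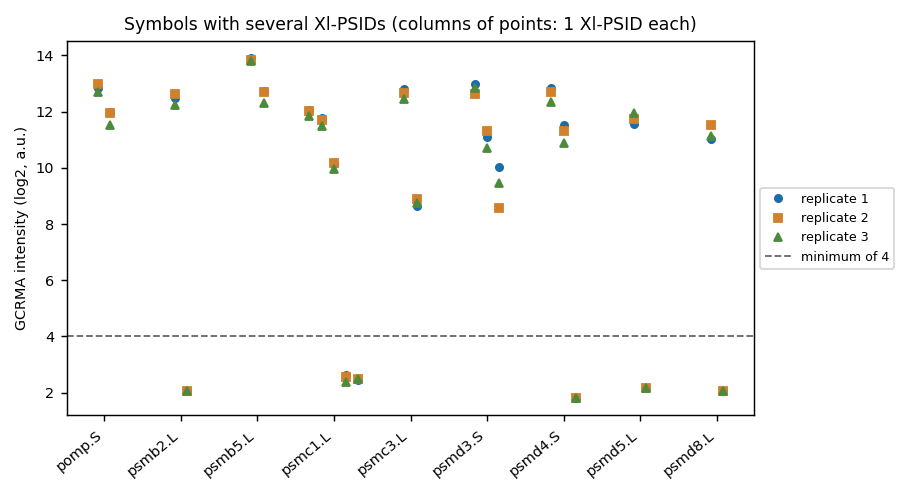
Log2 GCRMA intensity (a.u.) of the 9 proteasome symbols with several Xl-PSIDs, each array as a point. Means for psmd4.S lay at 12.63, 11.23 and 1.80, while the points of most single Xl-PSIDs lay close together.

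X. laevis is allotetraploid and keeps many genes as an L and an S homeolog, and 19 proteasome genes had a detected Xl-PSID for each, while 18 genes had L only and 10 had S only among the members. By the Xl-PSID of highest mean, L read higher on every array for 10 pairs and S for 7, the absolute difference had a median of 0.62, and it was over 1 for 7 pairs. The same counts were not made over all genes, so they are not read as a trait of the members. The difference between L and S had a median SD over arrays of 0.10, but was not steady for every pair. For psmb6 it ran between -0.20 and 0.66 (SD 0.48), and for psmc3 between 6.17 and 7.28 (SD 0.59). Any members that fall together on replicate 3 could also give a small SD, so the median does not show a trait of homeologs. For psmc3 the means were 12.63 (L) and 6.02 (S), for adrm1 9.12 (L) and 11.11 (S), for psmb2 12.44 (L) and 10.60 (S), and for psmd9 10.83 (L) and 12.50 (S). Pairs such as psma7, with 12.97 (L) and 12.92 (S), and psmd14, with 11.62 (L) and 11.72 (S), read close together. Since the psmc3.L Xl-PSIDs alone lay 12.63 and 8.77, none of these differences is given as a difference in homeolog expression. The Xl-PSIDs of psmc6.L and psmc6.S are of the x type, and psma6.L and psmd8.S of the s type, which can match more than 1 transcript.

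Most homeolog pairs were lowest on the same array. This held for 18 of 19 proteasome pairs, against 51.7% of 1518 genes with both homeologs detected, and psmc3 was the exception. Both homeologs were lowest on replicate 3 for 15 of 19 pairs, against 21.3% of those genes. Since 59 of 74 detected members were lowest on replicate 3, members that are not homeologs would often share it too. These counts therefore do not show a trait of homeologs. The highest array was shared by 11 of 19 pairs, against 51.5%. For psmd8, L read 11.03, 11.52 and 11.13 and S read 10.42, 10.87 and 10.52, both lowest on replicate 1, and for psmd12, L read 11.81, 11.68 and 11.28 and S read 11.65, 11.51 and 11.11, both lowest on replicate 3.

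**Figure D3:**
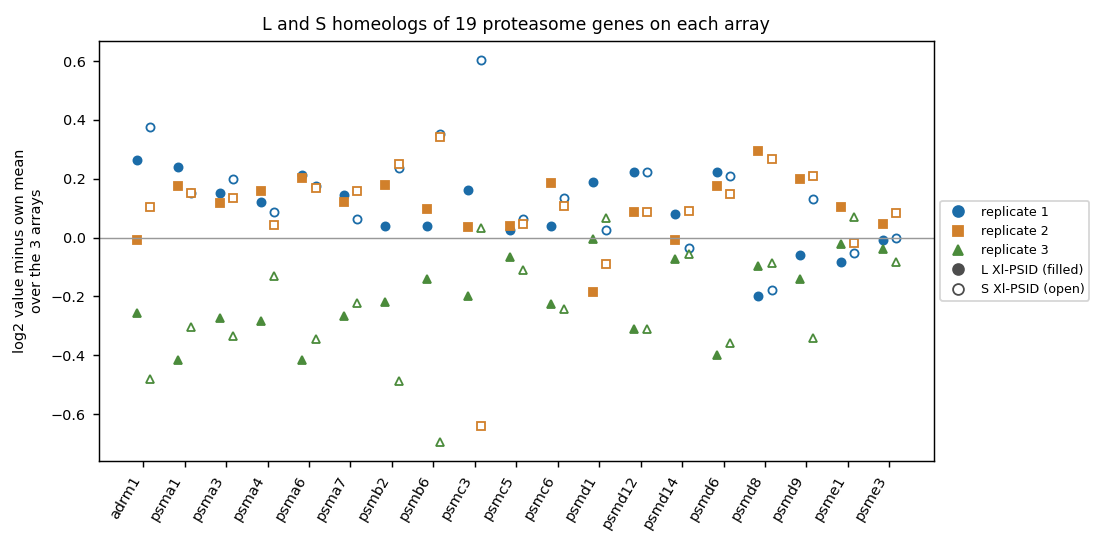
Log2 value minus the Xl-PSID's own mean over the 3 arrays (vertical axis) for the L (filled) and S (open) Xl-PSIDs of 19 proteasome genes. Replicate 3 (triangles) lies below 0 for most genes in both homeologs, and both were lowest there for 15 of 19 pairs.

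Variation between arrays was small in size. The median SD of detected members was 0.21, against 0.20 for all detected Xl-PSIDs, and the median range between the highest and lowest array was 0.39, against 0.37. No detected member had a range of 1.5 or more, against 2.89% of all detected Xl-PSIDs, and 3 had a range of 1 or more, against 8.44%. The 5 largest ranges were 1.45 for psmd3.S, 1.24 for psmc3.S, 1.04 for psmb6.S, 0.92 for psmb8.L and 0.86 for adrm1.S. A range under 0.5 was found for 50 members (67.6%), against 66% of all detected Xl-PSIDs.

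The direction of this variation was shared. Of 74 detected members 59 were lowest on replicate 3, against 33.6% of all detected Xl-PSIDs, 38.8% of those with 1 symbol and 41.3% of those with 1 symbol and a mean of 10 or more. Without the 2 matched by name only it was 58 of 72. On replicate 3, 63 members read lower than on replicate 1 (median difference -0.27, against 51.1% of all detected Xl-PSIDs and 54% of those with 1 symbol), and 65 read lower than on replicate 2 (median -0.33, against 48.6% and 55.2%). Between replicates 1 and 2 the median difference was 0.00, with 34 members lower on replicate 1 (against 47.8% and 52.3%). Single members differed by -0.92 to 1.45. Replicate 1 was lowest for 8 members, against 31.2% of all detected Xl-PSIDs, and replicate 2 for 7, against 35.2%. Replicate 1 was highest for 37 members, against 34.2%, and replicate 2 for 32, against 32.3%. Each array's deviation, taken from the mean of the other arrays, had a median of 0.13, 0.16 and -0.26 over the members on replicates 1, 2 and 3, against 0.01, -0.01 and 0.00 over all detected Xl-PSIDs. With 1 pool per array no test of replicate 3 was possible, and members are not independent samples of it.

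Within the complex, the constitutive core particle shared this order throughout. Its 22 of 22 detected Xl-PSIDs were lowest on replicate 3, with a median deviation there of -0.44, and the differences between replicates 3 and 1 ran between -1.04 and -0.12. Between replicates 1 and 2 the same Xl-PSIDs differed by -0.14 to 0.07. Other classes went different ways there. Lower on replicate 1 than on replicate 2 were 8 of 31 in the regulatory particle (median 0.09) and 8 of 9 assembly factors (-0.16). For activators and inhibitor it was 5 of 7 (-0.06). The median deviation on replicate 3 was -0.44 for the alpha ring (12 of 12 lowest), -0.51 for structural beta subunits (5 of 5) and -0.30 for catalytic beta subunits (5 of 5). It was -0.22 for base ATPases (10 of 12), -0.40 for the rest of the base (4 of 6), -0.17 for the lid (9 of 13), -0.20 for assembly factors (8 of 9) and -0.06 for activators and inhibitor (4 of 7). Highest on replicate 3 were 5 members, psme1.S, psme4.L, psmd5.L, psmd1.S and psmb7.2.L, against 33.5% of all detected Xl-PSIDs and 29.3% of those with 1 symbol. Differences between the classes were not tested.

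**Figure D4:**
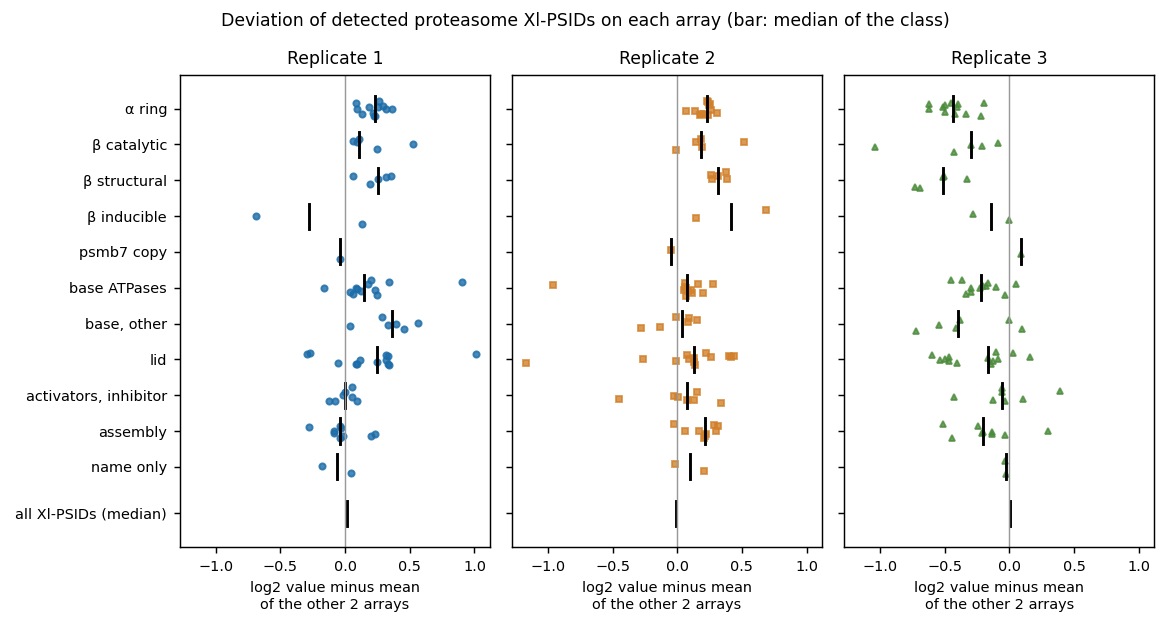
Deviation of each array from the mean of the other arrays (log2) for detected proteasome Xl-PSIDs, by class and by replicate. On replicate 3 the Xl-PSIDs of the constitutive core lie below 0, with a median of -0.44, while those of activators and inhibitor lie on both sides of 0, with a median of -0.06.

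Other measures also differed on replicate 3, and some of them differed on replicate 1 by as much or more. The 5′ minus 3′ control probe sets, which read lower with less complete RNA or cDNA, differed by -3.13, -3.00 and -3.87 in ef1a on replicates 1, 2 and 3. In gapdh the same difference was -1.12, -1.04 and -1.36, lowest on replicate 3 as well. The actin 5′ probe set was below the minimum of 4 on each array and could not be read in this way. The paper states that the RNA of every replicate put on arrays met its minimum RNA integrity number. The median deviation on replicate 3 was -0.93 for detected neuron markers (20 of 25 Xl-PSIDs lowest there), -0.25 for Schwann cells (5 of 6), -0.22 for leukocytes (12 of 17), -0.67 for hair cells (3 of 4) and 0.81 for skeletal muscle (2 of 28). It was -0.17 for cartilage and bone (8 of 14), -0.20 for skin and its glands (13 of 18) and -0.01 for erythrocytes (5 of 14). On replicate 1 the median deviation was 0.93 for neuron markers (18 of 25 highest there) and 0.93 for hair cells (4 of 4). There it was 0.24 for cartilage and bone (11 of 14) and 0.18 for Schwann cells (3 of 6). The replicate 1 values were 0.17 for skin and its glands, 0.05 for erythrocytes, 0.02 for leukocytes and -0.37 for skeletal muscle. The hair cell values rested on 4 Xl-PSIDs of 3 genes. On replicates 1, 2 and 3, calb1.L read 9.35, 7.58 and 6.96, and ush1c.S read 11.82, 11.53 and 11.49. There myo6.L read 12.94, 12.50 and 12.73, lowest on replicate 2. Of the 28 muscle Xl-PSIDs 21 were highest on replicate 3 and 7 on replicate 1. Among the latter, myh4.L read 9.22, 6.70 and 6.62, and myh8.L read 7.87, 3.86 and 5.22. The skin list was uneven by the Xl-PSID of highest mean for each gene. On replicates 1, 2 and 3, xenoxin1.L read 7.49, 7.99 and 1.89, and levi.2.L read 8.34, 8.41 and 5.25. On the same arrays xt6l.L read 10.35, 10.40 and 7.22, and pgla-a read 8.98, 9.43 and 7.09. The other measured genes of that list varied less, with ranges of 0.30 (magainins.L), 0.32 (dsp.S), 0.48 (krt61.L) and 0.08 (krt19.S). Summed linear intensities of the neuron markers were 88879, 73034 and 55254 a.u. on replicates 1, 2 and 3, those of the muscle markers were 35806, 29111 and 47059 a.u., and those of the members were 326801, 325342 and 264380 a.u. On replicate 3 another complex, the CCT chaperonin, had a median deviation of -0.30 (13 of 17 lowest), and cytoplasmic ribosomal proteins had -0.01 (49 of 124). On replicate 1 the CCT chaperonin had 0.27 (15 of 17 highest). The part of RNA completeness, cell mixture or the pool itself in the lower proteasome values of replicate 3 was not tested.

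The rest of the ubiquitin pathway was detected almost throughout. Of 71 listed names outside the proteasome rule 52 had an Xl-PSID and 51 were detected (98.1%), against 80.2% of all genes with a symbol. The exception was the conjugating enzyme ube2z at 2.23, 2.23 and 2.24. Among the names without an Xl-PSID, shfm1, ecm29 and ufd1l are older names of sem1, ecpas and ufd1, which were detected. The activating enzyme uba1.L read 11.28, 11.11 and 10.87. Conjugating enzymes were detected for 21 of 22 genes, proteasome-bound and delivery factors for 23 of 23 and regulators of proteasome genes for 6 of 6. Over the 95 detected Xl-PSIDs of the pathway 35 were lowest on replicate 3, against 33.6% of all detected Xl-PSIDs and 38.8% of those with 1 symbol, with a median deviation of -0.05. The parts differed, with 21 of 44 for proteasome-bound and delivery factors (median -0.14) and 10 of 37 for conjugating enzymes (-0.01). Regulators had 3 of 12 (0.01) and uba1 had 1 of 2 (-0.12). By the Xl-PSID of highest mean for each gene, the 3 largest ranges were 0.70 for ube2h.L, 0.66 for ube2v2.S and 0.58 for ube2e2.S, all conjugating enzymes or a variant of one, and none of them was lowest on replicate 3.

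Partners that work on the proteasome itself were detected. The small lid subunit sem1.S, whose name the rule did not reach, read 13.46, 13.53 and 13.45. The deubiquitinases that dock on the regulatory particle, usp14.S and uchl5.L, read 10.79, 10.92 and 11.11, and 11.85, 11.79 and 12.16, each highest on replicate 3. The base chaperone paaf1.S read 10.87, 10.91 and 10.60. The transcription factor nfe2l1.S, which in mammals raises proteasome genes when the complex is inhibited, read 10.94, 11.10 and 10.82.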

How the data were processed

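The authors hybridised labelled cDNA from 3 pools of juvenile inner ear RNA to Affymetrix *X. laevis* Genome 2.0 arrays and preprocessed the scans with GCRMA. The deposited values are log2 intensities in a.u. per Xl-PSID, and they were used as deposited. Of 32635 Xl-PSIDs 96 controls were left out. Genes were named from the platform's probe-to-gene table, and neighbouring genes from RefSeq.

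Detection meant a mean over the arrays of at least 4. An intercept-only limma fit (version 3.58.1, R 4.3.3) over 32539 Xl-PSIDs tested each mean against 4, one-sided, with Benjamini-Hochberg adjustment at 0.05, and was tested on simulated data. Other values were computed in Python 3.11.15 with pandas 2.3.3. No comparison of groups was possible with 1 group. The named genes were the catalytic, inducible, activator, ATPase, pomp and adrm1 Xl-PSIDs, the undetected members and their partners, the 5 largest and 3 smallest ranges, and from the lists those undetected and the 3 largest ranges. Other genes given with values were chosen after their values were seen. The members and lists were chosen with earlier results of these data known. Alternatives covered the minimum, normalization, probe set types, symbols, the limma settings and each array left out. The number of arrays limits the precision.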

Additional observations from a re-analysis of the deposited data

How the results depend on the processing

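Proteasome detection and the low replicate 3 held under most alternatives. Of 91 values recomputed for the counts and medians, 89 kept their direction and stayed within a tolerance. It was 1.5 times for a count, the spread between replicates for the median level, and the median member SD of 0.21 for deviations. The last is wider than the deviations on replicates 1 and 2 themselves, which could nearly vanish within it. On replicate 1 the median deviation was 0.07 with arrays centred and 0.0049 without replicate 3, against 0.13. No member mean lay between 2.53 and 6.02, so minima of 3, 5 and 6 could not change the detected members. Updating the symbols gave the same 80 members, so the values of that alternative could not change either. With no range of 1.5 or more, leaving out an array, raising the minimum or dropping probe set types could not give one. The 89 therefore include values that were fixed beforehand. With a difference of 1 in place of 1.5, 3 members varied between arrays, against 0. The median deviation on replicate 2 was -0.0049 without replicate 3, against 0.16 with all arrays. Leaving out each array in turn gave 74 to 74 detected members, 73 to 74 by limma, a median level of 11.59 to 11.71, and deviations of 0.0049 to 0.27 on replicate 1, -0.0049 to 0.33 on replicate 2 and -0.33 to -0.27 on replicate 3. Lowest on replicate 3 were 54 of 74 members after quantile normalization, 55 of 74 with arrays centred on their medians and 55 of 68 without the s and x types, against 59 of 74, a result added after seeing the data. Every Xl-PSID was detected for 42 genes. Of 145 values for single named Xl-PSIDs 143 moved by less than the Xl-PSID's own SD over the arrays. Leaving out an array cannot move a mean by that much, so only the values after another normalization could fail. No paired analysis was possible because the arrays form 1 group. Depth does not apply to arrays, and their number is the limit.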

Other observations

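Members of the class I antigen processing and interferon list were measured for 13 of 23 entries, and 12 were detected (92.3%), against 80.2% of all genes with a symbol. The exception was irf9.L, a transcription factor of the interferon response, at 1.88 on each array. By the Xl-PSID of highest mean for each gene, the 3 largest ranges were 1.61 for gbp1, an interferon-inducible GTPase that read 9.71, 8.71 and 10.31, 1.13 for tap2.L and 0.86 for pdia3.S, a chaperone of class I loading that read 12.58, 12.44 and 11.72. The light chain b2m.S read 13.26, 13.33 and 13.38. The list had 5 of 24 detected Xl-PSIDs lowest on replicate 3, against 33.6% of all detected Xl-PSIDs.

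Proteasome Xl-PSIDs that carry several symbols were left out of the members. The one shared by psmd2.S and psmd2.L, homeologs of a base scaffold, read 12.84, 12.51 and 12.56, lowest on replicate 2. Those shared by the homeologs of psmc6 and psma4 read 12.89, 12.94 and 12.59, and 12.50, 12.43 and 12.07, both lowest on replicate 3.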
